A study of Homo sapiens with 6 samples.

Results

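The E2F and retinoblastoma family was described as 10 genes, E2F1 to E2F8, RB1 and RBL1, taken from the 19973 genes of the deposited table by their symbols. All 10 had enough reads to be tested. The RNA came from cells labelled OVCAR3, an established human ovarian cancer cell line, and was sequenced in 2 groups of 3 libraries each. The cells of the shNC group carried a control hairpin and are labelled wild type, and the cells of the shNUF2 group carried a hairpin against NUF2, a subunit of the NDC80 complex that ties kinetochores to spindle microtubules, and are labelled as NUF2 knockdown. Both hairpins were expressed from a U6 promoter vector with a puromycin marker, and both groups were selected with puromycin to obtain stable lines. The sources used here do not say whether a line is a clone or a pool, whether libraries came from separate cultures or how long the cells had been selected, so that p-values measure the spread between these libraries only, which may be technical.

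E2F proteins bind DNA in front of genes needed for DNA synthesis and cell division. E2F1, E2F2 and E2F3 mostly activate these genes, E2F4 and E2F5 mostly repress them together with pocket proteins, E2F6 represses as part of a Polycomb complex, and the atypical E2F7 and E2F8 repress without a DP partner. RB1 and RBL1 are pocket proteins that bind E2F proteins and hold their target genes silent until cyclin-dependent kinases (CDKs) phosphorylate them, and loss of this control is common in ovarian cancer.

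Several E2F genes are themselves E2F targets, and the short words that E2F proteins bind were looked for in their promoters. The words TTTCCCGC, TTTCGCGC, TTTGCCGC and TTTGGCGC were searched on both strands from 250 bases before to 50 bases after the gene start in the RefSeq promoters of GRCh38.p14. A window was found for 8 of the 10 members, all but E2F5 and E2F8. Of these 8, 4 contained at least 1 word, against 5.4% of the 10297 windows of genes tested and 3.33% of 27305 windows in all. The stretches that contain the words are shown for all 4 members with a word. Of these, E2F1, E2F2 and RBL1 fell and E2F3 did not pass the test. E2F5, E2F6 and RB1 also fell, and of these E2F5 had no window and E2F6 and RB1 no word in theirs. The words are in capitals, and each sequence is written 5′ to 3′ on the strand of the gene. The E2F1 stretch is chr20:33686386-33686438 (minus strand), the E2F2 stretch chr1:23531248-23531295 (minus strand), the E2F3 stretch chr6:20401806-20401853 (plus strand) and the RBL1 stretch chr20:37095998-37096043 (minus strand).
E2F1: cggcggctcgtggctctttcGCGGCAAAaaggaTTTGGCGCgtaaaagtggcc
E2F2: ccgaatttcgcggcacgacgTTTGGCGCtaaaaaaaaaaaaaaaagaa
E2F3: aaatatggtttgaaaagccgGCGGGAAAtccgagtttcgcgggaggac
RBL1: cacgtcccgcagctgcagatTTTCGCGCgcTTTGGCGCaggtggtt
In all 4 promoters the words lay within 53 bases upstream of the gene start. E2F1 and RBL1 held 2 words each, E2F2 and E2F3 1 each. None of the words was found in the windows of E2F4, E2F6 and E2F7. The RefSeq window of RB1, counted among the 8, is built around a start at position 48476450 of chromosome 13. This start is 172706 bases inside the gene as the table gives it, so the window does not describe the upstream promoter. A word is a match of letters and not a measured binding site.

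The total counts per library ranged from 14115009 to 16995452 in the shNC group and from 13057534 to 15227460 in the shNUF2 group. Genes with at least 1 count numbered 14582 to 14691 in shNC libraries and 15435 to 15536 in shNUF2 libraries, so that every shNUF2 library had more. NUF2, the targeted gene, was counted 903, 1096 and 1092 times in shNC libraries and 281, 290 and 384 times in shNUF2 libraries, so that the knockdown was seen in every library. Of 8 markers of ovarian carcinoma epithelium, 7 had enough reads to be tested. The summed level of all 8 was 239 to 275 FPKM with shNC and 284 to 312 FPKM with shNUF2. FPKM is the read count scaled to gene length and library total. Among them KRT8, KRT18, KRT7, MUC16 and PAX8 were present, but WT1 had 0 to 7 reads per library, CDH1 had 9 to 33 and EPCAM had 44 to 91. These low reads go against the OVCAR3 label, since the line is known for expressing all of these genes. Of the 7 tested, 4 were higher with shNUF2 (KRT8, KRT18, PAX8 and EPCAM), and MUC16 (-0.75 on the log2 scale) and KRT7 (-0.22) were lower. The summed levels of fibroblast markers were 9.44 to 10.1 FPKM with shNC and 7.36 to 8.24 with shNUF2, and most of the sum was COL1A1, with a log2 fold change of -0.39. DCN went the other way, with 1.22 (edgeR adjusted p = 7.00e-06), and COL3A1, too low to be tested, had 0 to 2 reads with shNC and 5 to 15 with shNUF2, while COL1A2 had 0 to 2 in all libraries. Leukocyte markers summed to 0.513 to 0.984 and 1.53 to 2.26 FPKM, and endothelial markers to 0.263 to 0.439 and 0.462 to 0.746 FPKM, with 0 to 11 reads for PTPRC, the common leukocyte antigen, and 0 to 6 for VWF. The part of these differences in the results was not tested.

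In the family, 6 members fell with shNUF2 (E2F1, E2F2, E2F5, E2F6, RB1 and RBL1), 1 rose (E2F7), and E2F3, E2F4 and E2F8 did not pass the test. The counts were 6 of 10 lower, against 33.8% of all 12874 genes tested, and 1 of 10 higher, against 33.9%. In either direction 7 of 10 passed, against 67.6%. Calls rest on the quasi-likelihood test of edgeR at an adjusted p under 0.05, adjusted over all genes tested, and SE below is the standard error of a log2 fold change. In bulk RNA, fewer cells in a phase of the cycle and less RNA per cell cannot be told apart. The median log2 fold change was -0.41 over the 10 members and -0.01 over all genes tested. The changes were small, since the largest was -0.86 on the log2 scale, and 0 members passed the study's threshold, a fold change beyond 1 in either direction, read here as log2, with p under 0.05, by edgeR, DESeq2 or limma, against 13.6% of all genes (9.41% higher and 4.16% lower). When the change had to exceed 1.5-fold (edgeR's TREAT), 0 members passed, against 11.9% of all genes higher and 7.47% lower. In 8 of the 10 members the normalised counts of the groups did not overlap, against 70.6% of all genes, though E2F4 among these 8 overlapped in FPKM. Each of these 8 reached p = 0.10 in the exact two-sided permutation test, which is the smallest p that 3 libraries against 3 allow.

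**Figure D1:**
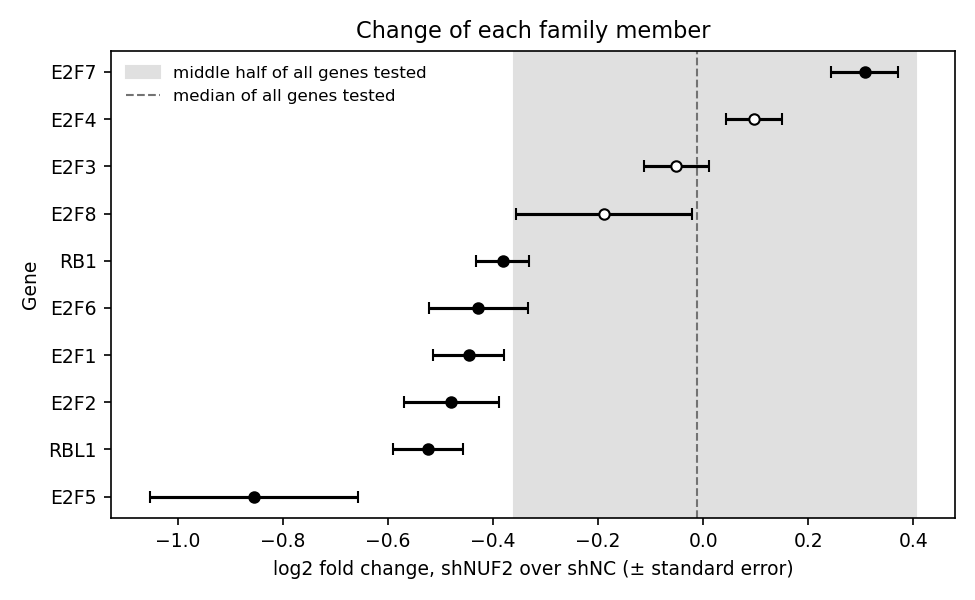
The log2 fold change of each member (shNUF2 over shNC, horizontal axis) is plotted with its standard error from edgeR, with filled points for an adjusted p under 0.05 and open points otherwise. The 6 members that fell lie at -0.38 or below, E2F7 lies at 0.31, and the grey band and dashed line give the middle 50% and the median of all genes tested.

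Among the activators, E2F1 and E2F2 were lower with shNUF2 and E2F3 was not called. E2F1 (ENSG00000101412, chromosome 20 of GRCh38 from 33675477 to 33686385), the activator that also drives apoptosis genes, was counted 777, 830 and 935 times in shNC libraries and 506, 506 and 624 times in shNUF2 libraries. Its level was 20.2 ± 0.467 FPKM in controls and 14.4 ± 0.8 FPKM after knockdown (SD, n = 3 each). All shNUF2 libraries were below all shNC libraries, and the log2 fold change was -0.45 (SE 0.07, edgeR adjusted p = 1.75e-06).

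E2F2 (ENSG00000007968, chromosome 1 from 23506438 to 23531233), which acts beside E2F1 at the entry into S phase, was counted 664, 698 and 771 times in shNC libraries and 375, 390 and 582 times in shNUF2 libraries. Per length this was 8.61, 8.14 and 8.31 FPKM against 4.98, 5.47 and 6.998 FPKM. The groups did not overlap, but shNUF2 replicate 3 was closer to the controls than the other 2 libraries of its group. The log2 fold change was -0.48 (SE 0.09, edgeR adjusted p = 4.08e-05), and it ranged from -0.64 without that library to -0.39 without shNUF2 replicate 1 when libraries were left out singly.

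E2F3 (ENSG00000112242, chromosome 6 from 20401879 to 20493714), the activator that is needed for growth in many cell types, was counted 1081, 1178 and 1203 times in shNC libraries and 949, 839 and 1152 times in shNUF2 libraries. Its groups overlapped, with 13.6 to 14.8 FPKM against 12.4 to 14.6 FPKM. The log2 fold change was -0.05 (SE 0.06, edgeR adjusted p = 0.474), and its sign turned to 0.0070 without shNUF2 replicate 2. GENCODE release 29 lists 2 pseudogenes named after E2F3, with which its reads could be shared.

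Among the repressors, E2F5 and E2F6 were lower with shNUF2, and E2F4, the most abundant member per length, was not called. E2F4 (ENSG00000205250, chromosome 16 from 67192155 to 67198918), the main E2F of resting cells, was counted 1195, 1503 and 1635 times in shNC libraries and 1315, 1248 and 1485 times in shNUF2 libraries. After normalization these were 84.1, 94.1 and 95.04 CPM (counts scaled to library size) against 97.6, 96.0 and 98.7 CPM. The groups did not overlap in CPM, with shNC replicate 1 the lowest, but they overlapped in FPKM (23.5 to 26.8 against 26.5 to 27.1). The difference was small beside the spread, with a log2 fold change of 0.10 (SE 0.05, edgeR adjusted p = 0.113). The fold change fell to 0.04 without shNC replicate 1 (edgeR adjusted p = 0.544). E2F4 passed with an adjusted p of 0.0497 when only genes with at least 1 CPM in every library were kept. Over the alternatives other than TREAT its adjusted p ranged from that value to 0.544, and TREAT gave an adjusted p of 1. E2F4 has 1 named pseudogene.

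E2F5 (ENSG00000133740, chromosome 8 from 85177154 to 85217158), a partner of pocket proteins in resting cells, was the least abundant member and showed the largest change of the 10. It was counted 81, 121 and 104 times in shNC libraries and 46, 43 and 59 times in shNUF2 libraries, with no overlap. The level was 1.09 ± 0.174 FPKM in controls and 0.584 ± 0.0541 FPKM after knockdown (SD, n = 3 each). The log2 fold change was -0.86 (SE 0.20, edgeR adjusted p = 4.41e-04), and -0.40 by limma on log2 of FPKM plus 1, a scale that understates changes at such levels. Of the exon bases of E2F5, 16.4% are also covered on the opposite strand by the gene RBIS, named C8orf59 in GENCODE. RBIS had a log2 fold change of -0.40. The libraries were strand-specific, but the strand setting of the counting is not given in the sources used here, so reads from this stretch may not have been told apart.

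E2F6 (ENSG00000169016, chromosome 2 from 11444375 to 11466177), which represses without pocket proteins, was counted 419, 459 and 511 times in shNC libraries and 315, 242 and 349 times in shNUF2 libraries. These were 7.19 to 7.39 FPKM with shNC and 4.56 to 5.64 FPKM with shNUF2, and all shNUF2 libraries were lower. The log2 fold change was -0.43 (SE 0.09, edgeR adjusted p = 2.65e-04). GENCODE lists 4 pseudogenes named after E2F6.

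Of the atypical members, E2F7 was higher with shNUF2 and E2F8 was not called. E2F7 (ENSG00000165891, chromosome 12 from 77021248 to 77065569), which represses E2F1 and other E2F targets late in S phase, was counted 751, 806 and 827 times in shNC libraries and 838, 766 and 989 times in shNUF2 libraries. In CPM these were 52.8, 50.4 and 48.1 against 62.2, 58.9 and 65.8, so that every shNUF2 library was above every shNC library. The log2 fold change was 0.31 (SE 0.06, edgeR adjusted p = 1.31e-04).

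E2F8 (ENSG00000129173, chromosome 11 from 19224063 to 19241620), which pairs with E2F7, was counted 98, 125 and 143 times in shNC libraries and 73, 92 and 116 times in shNUF2 libraries. Its groups overlapped, with 1.68 to 2.04 FPKM against 1.28 to 1.84 FPKM, and the log2 fold change was -0.19 (SE 0.17, edgeR adjusted p = 0.326). It was -0.06 without shNUF2 replicate 1 and -0.30 without shNUF2 replicate 3, and neither passed. Whether its change differs from that of E2F7 was not tested.

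Both pocket proteins of the family were lower with shNUF2. RB1 (ENSG00000139687, chromosome 13 from 48303744 to 48599436), the retinoblastoma tumor suppressor, was counted 1571, 1822 and 1864 times in shNC libraries and 1142, 1153 and 1235 times in shNUF2 libraries. The level was 17.5 ± 0.513 FPKM in controls and 13.1 ± 0.586 FPKM after knockdown (SD, n = 3 each). The groups were far apart beside their spread, with a log2 fold change of -0.38 (SE 0.05, edgeR adjusted p = 2.20e-07). LPAR6 and RCBTB2 lie on the opposite strand of RB1, and neither shares exon bases with it in GENCODE.

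RBL1 (ENSG00000080839, chromosome 20 from 36996349 to 37095997), also known as p107, which is made mainly in dividing cells, was counted 878, 989 and 1042 times in shNC libraries and 551, 605 and 614 times in shNUF2 libraries. These were 10.3 to 10.6 FPKM with shNC and 6.71 to 7.78 FPKM with shNUF2. The fall was seen in all 3 libraries, with a log2 fold change of -0.52 (SE 0.07, edgeR adjusted p = 9.94e-08), the smallest p of the family. An antisense RNA in GENCODE covers 3.54% of the exon bases of RBL1. RBL2, also known as p130, is the pocket protein of resting cells and was counted among the partners of the family. It was counted 1543, 1756 and 1902 times in shNC libraries and 1231, 1142 and 1454 times in shNUF2 libraries, with a change of -0.25 on the log2 scale (SE 0.05, edgeR adjusted p = 7.78e-05).

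Levels per length differed by more than the changes did. In the shNC libraries the order from high to low was E2F4 (25.6 FPKM), E2F1 (20.2), RB1 (17.5), E2F3 (14.3), RBL1 (10.4), E2F2 (8.35), E2F7 (8.12), E2F6 (7.29), E2F8 (1.88) and E2F5 (1.09). Of these neighbours, only E2F2 and E2F7 overlapped between libraries. In the shNUF2 libraries E2F4 (26.7 FPKM) and E2F1 (14.4) still led, but E2F1 overlapped E2F3 (13.4) and E2F3 overlapped RB1 (13.1). Lower down, RBL1 (7.08) overlapped E2F2 (5.81) and E2F2 overlapped E2F6 (5.27). E2F7, at 9.77 FPKM, stood above RBL1 with shNUF2 and below it with shNC, with no overlap in either group.

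**Figure D2:**
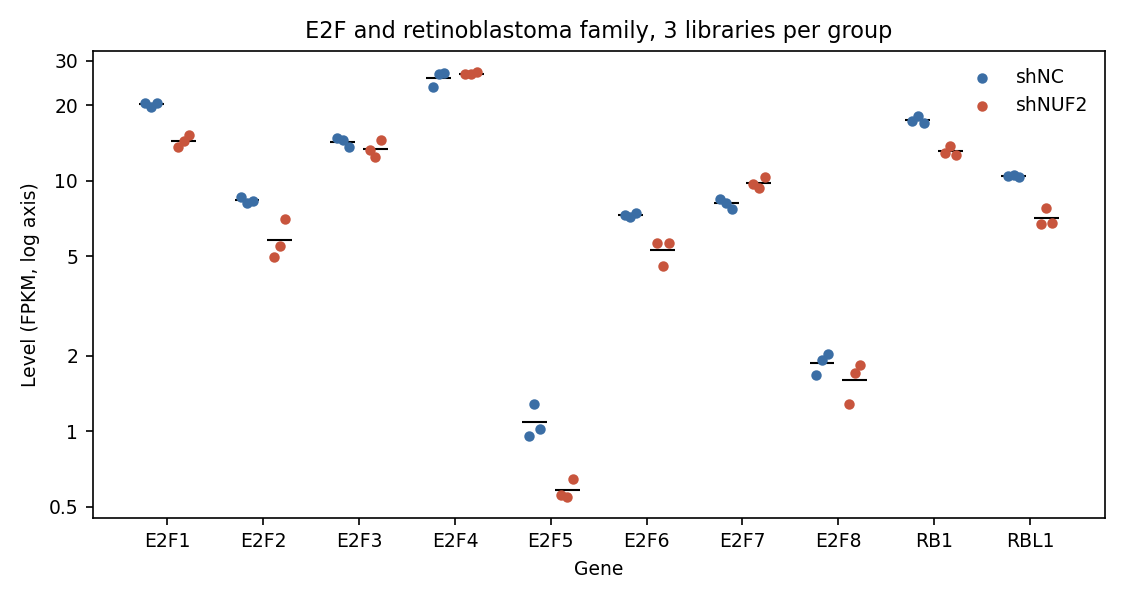
Level of each member in FPKM (vertical log axis) in the 3 shNC libraries (blue) and the 3 shNUF2 libraries (red), with the group mean as a line. E2F4 has the highest level in both groups and E2F5 the lowest, and the red points lie below the blue ones for E2F1, E2F2, E2F5, E2F6, RB1 and RBL1 and above them for E2F7.

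The make-up of the E2F transcripts shifted with these changes. The activators E2F1 to E2F3 together made up 51.1%, 48.3% and 48.5% of the summed FPKM of the 8 E2F genes in the shNC libraries and 42.2%, 43.0% and 44.7% in the shNUF2 libraries. The share of E2F7 and E2F8 was 11.8%, 11.5% and 11.2% with shNC and 14.5%, 14.7% and 14.8% with shNUF2. These shares do not depend on the scaling between libraries, and the groups did not overlap in either. The share of E2F4 to E2F6 ran from 37.1% to 40.3% with shNC and from 40.5% to 43.3% with shNUF2, so that the groups nearly touched. Their summed level did not rise, at 34.0 ± 1.92 FPKM in controls and 32.6 ± 0.861 FPKM after knockdown (SD, n = 3 each).

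Ratios between members were taken within each library, where scaling between libraries does not enter. The ratio of E2F4 to E2F1 in FPKM was 1.27 ± 0.107 in controls and 1.86 ± 0.0825 after knockdown (SD, n = 3 each), and the ratio of E2F7 to E2F1 was 0.402 ± 0.0208 and 0.678 ± 0.0304. Neither overlapped between groups. The ratio of E2F1 to RB1 was 1.16 ± 0.0594 in controls and 1.11 ± 0.0889 after knockdown (SD, n = 3 each), and that of E2F1 to RBL1 was 1.93 ± 0.0677 and 2.05 ± 0.199, both with overlap. The ratio of RBL1 to RB1, which were both lower, was 0.598 ± 0.0101 in controls and 0.542 ± 0.0232 after knockdown (SD, n = 3 each), with no overlap. The summed level of RB1 and RBL1 was 27.9 ± 0.647 FPKM in controls and 20.1 ± 1.18 FPKM after knockdown (SD, n = 3 each), while that of the 8 E2F genes was 86.8 ± 0.926 and 77.6 ± 4.14 FPKM.

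**Figure D3:**
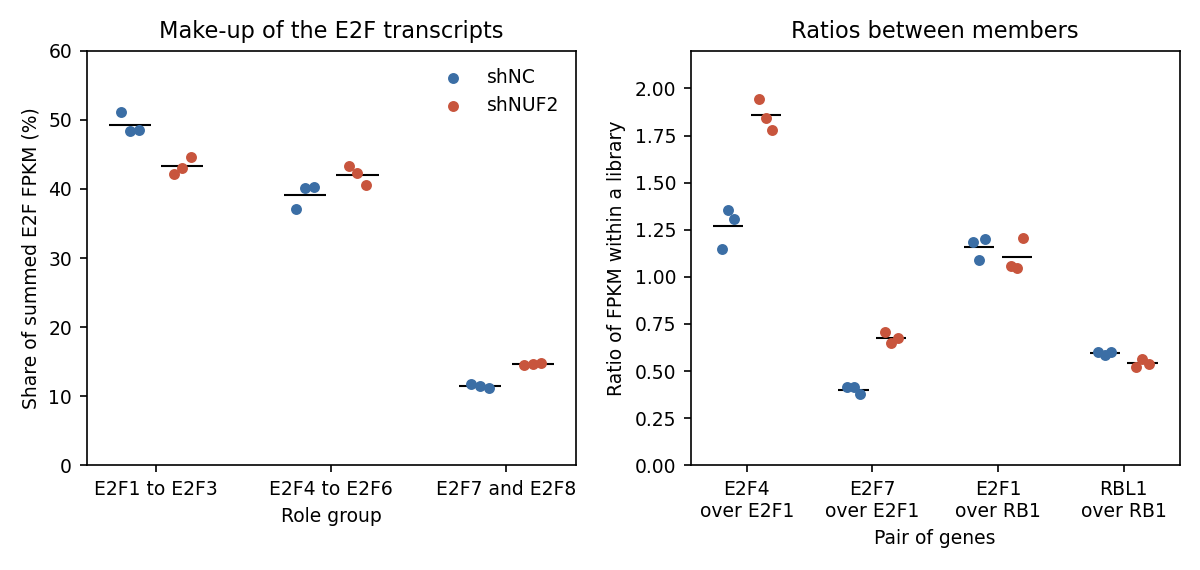
Left, the share of each role group in the summed FPKM of the 8 E2F genes (percent, vertical axis) by library, and right, ratios of FPKM between pairs of members within each library. Blue points are shNC libraries, red points shNUF2 libraries and lines group means. The activators' share is lower and the share of E2F7 and E2F8 higher in all 3 shNUF2 libraries, and the ratio of E2F1 to RB1 overlaps between groups.

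The genes that act with the family were taken as lists. Of 12 partners and subunits of the MuvB complex, with which pocket proteins and E2F4 form the DREAM repressor, 3 were higher and 6 lower, with a median log2 fold change of -0.17. As for the family, these counts and those of the lists that follow stand beside 33.9% higher and 33.8% lower among all genes. FOXM1, which drives mitotic genes with MuvB, had the largest decrease, -0.52 (SE 0.07). TFDP1, the main DNA-binding partner of the E2F proteins, fell from 28.8 ± 1.17 to 20.01 ± 1.05 FPKM (SD, n = 3 each), a log2 fold change of -0.49, and its relative TFDP2 had -0.24. RBBP4, a histone-binding subunit of MuvB, had -0.26. In contrast, MYBL2, the B-MYB protein that replaces pocket proteins on MuvB, rose from 45.1 ± 1.67 to 64.5 ± 4.61 FPKM (SD, n = 3 each), a log2 fold change of 0.55, and MYBL1 had 0.45. The adjusted p of these genes was at most 6.20e-04 by the edgeR test. LIN37, a MuvB subunit, had the largest increase, 1.00 (SE 0.39, edgeR adjusted p = 0.0255), at only 9 to 25 reads per library. LIN37 was not called by DESeq2 (adjusted p = 0.0508), was not tested with at least 1 CPM in every library, and lost its call without shNC replicate 1 (0.0826) or 3 (0.0766) or without shNUF2 replicate 1 (0.110) or 2 (0.0769), these by edgeR.

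Of the 13 kinases, cyclins and inhibitors upstream of RB1, 12 were tested, 5 were higher and 6 lower. The kinases CDK4 and CDK6, which phosphorylate pocket proteins with D-type cyclins, both fell, with log2 fold changes of -0.77 (SE 0.06) and -0.76 (0.05). CCND1, the cyclin D1 that activates them, had 51.5 ± 0.44 FPKM with shNC and 30.9 ± 0.791 with shNUF2 (SD, n = 3 each). All 5 that rose were CDK inhibitors, 3 of them CDKN2B (0.89), CDKN2A (0.31) and CDKN1C (0.24). The fourth, CDKN1A, the p21 inhibitor, had 97.9 ± 9.46 FPKM with shNC and 149.7 ± 3.16 with shNUF2 (SD, n = 3 each), a log2 fold change of 0.65. The fifth, CDKN2D, which inhibits CDK4 and CDK6, was counted 45, 48 and 59 times in shNC libraries and 121, 131 and 131 times in shNUF2 libraries, a log2 fold change of 1.53 (SE 0.18). It was the only listed gene outside the markers and NUF2 beyond 1 on the log2 scale. The inhibitors CDKN1B and CDKN2C, on the other hand, fell, with -0.20 and -0.27. The largest adjusted p of these genes was 0.00144 by the edgeR test.

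Of 14 chromatin corepressors that RB1 works with, 4 were higher, 4 lower and 6 did not pass (median 0.02), shares no larger than those of all genes. The deacetylases HDAC3 and HDAC1 had log2 fold changes of 0.88 and 0.48 and the Sin3 scaffold SIN3B had 0.28, while RBBP8, an RB1-binding DNA repair protein, had -0.78 and RBBP7, a histone-binding protein, had -0.39. Of 8 subunits of PRC1.6, the Polycomb complex of E2F6, 2 were higher, 4 lower and 2 did not pass (median -0.11). MGA, its DNA-binding scaffold, had -0.45, its partner MAX 0.55, the ubiquitin ligase RING1 -0.44, the heterochromatin protein CBX3 -0.31 and L3MBTL2 -0.46. The largest adjusted p among the genes named here was 0.00152, for L3MBTL2, by the edgeR test.

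Genes below the family did not move as a block. Of 37 G1/S genes under E2F control, 6 were higher, 18 lower and 13 did not pass, with a median of -0.11. POLA1, the catalytic subunit of DNA polymerase alpha, had the largest decrease, -0.67 (SE 0.05). MCM3, of the replicative helicase, and RRM1, of ribonucleotide reductase, had -0.57 and -0.41, whereas MCM2, of the same helicase, had -0.05 and was not called (edgeR adjusted p = 0.312). CDT1, which loads that helicase, had the largest increase, from 31.4 ± 2.83 to 48.6 ± 0.718 FPKM (SD, n = 3 each), a log2 fold change of 0.67. At least 1 E2F word was present in 17 of the 31 promoters of this list that had a window, against 5.4% of the promoters of genes tested.

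Of 28 G2/M genes under DREAM and FOXM1, 14 were higher, 7 lower and 7 did not pass, with a median of 0.10. The ubiquitin-conjugating enzyme UBE2C had the largest increase, 0.56, and the spindle protein TPX2 had 0.24. TOP2A, the topoisomerase that untangles chromosomes, had the largest decrease, from 126.8 ± 2.45 to 77.5 ± 2.63 FPKM (SD, n = 3 each), a log2 fold change of -0.67, and the proliferation marker MKI67 had -0.22. The word TTTGAA, the cell cycle homology region bound by MuvB, was found in 15 of the 23 promoters of this list with a window and in 9.72% of the promoters of genes tested. Among the 8 windows of the family it was found in that of E2F3 alone, and the window of RB1 lies inside the gene.

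Of 5 apoptosis genes that E2F1 can activate, 4 were higher, 0 lower and 1 did not pass by edgeR, with a median of 0.70. The number lower was also 0 at an unadjusted p under 0.05 and by DESeq2 and limma. APAF1, the apoptosome scaffold, had 0.74 (SE 0.06) and PMAIP1, also known as NOXA, 0.73 (0.06), each with an adjusted p of at most 5.08e-11 by the edgeR test. CASP8, an initiator caspase, was not called, at -0.08 (edgeR adjusted p = 0.284). E2F1 itself was lower in the same libraries.

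**Figure D4:**
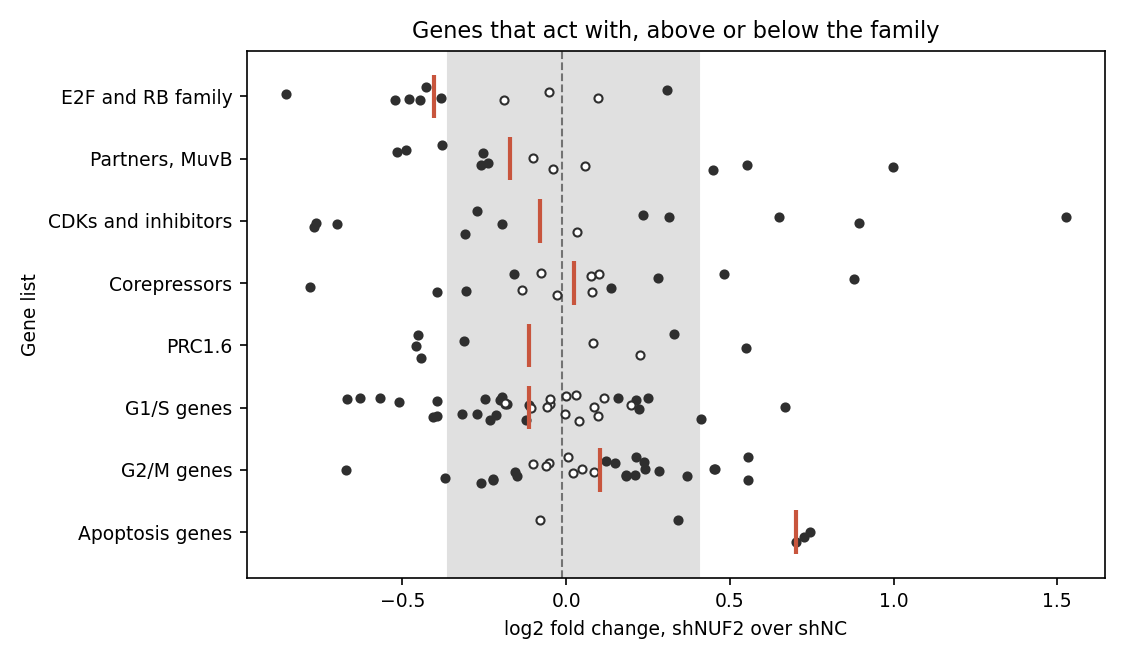
Each point is the log2 fold change (shNUF2 over shNC) of 1 gene, filled for an adjusted p under 0.05, in the family and in the 7 lists of genes around it, with the list median in red. The grey band and the dashed line give the middle 50% and the median of all genes tested. The family lies mostly to the left, the apoptosis genes mostly to the right, and the other lists on both sides.

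The pattern most like that of E2F5, the member with the largest change, was found for OXNAD1 (Pearson's r = 1.00 over the 6 libraries, on log2 CPM), NEU3 (0.998) and MEST (0.996). These ranked first among 8579 genes whose average reached 4 log2 CPM, of which 908 had an r above 0.95. The 6 points fall into 2 groups, so that r mostly follows the difference between them and gives no evidence of a shared control.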

How the data were processed

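Libraries were made with a strand-specific mRNA kit and sequenced on an Illumina NovaSeq instrument, and the submitters' processing notes name cutadapt, HISAT, HTSeq and GRCh38.p13, with no order or versions. The authors deposited raw read counts per gene and FPKM values, which are proportional to count over gene length and library total (largest relative deviation 2.71e-07). Strand setting, annotation release and read filters are not given in the sources used here. The gene lengths behind FPKM are the deposited ones.

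The counts went into edgeR 4.0.16 (R 4.3.3) with TMM scaling, filterByExpr and its quasi-likelihood test of shNUF2 against shNC over all 6 libraries with no covariate, adjusted by the Benjamini-Hochberg method over 12874 genes. Standard errors are the log2 fold change over the square root of F. CPM are TMM-scaled. limma 3.58.1 on log2 FPKM with pseudocounts of 1 and 0.1, and DESeq2 1.42.0, were alternatives, beside other scalings and filters, the replicate block, left-out libraries and edgeR's TREAT test beyond 1.5-fold. On simulated counts with 200 of 12764 genes changed, edgeR recovered 199 and called 9 unchanged genes, DESeq2 recovered 197 and limma 196. These numbers are not split by size of change, so recovery at the sizes seen in the members is not given. A share of changed genes as large as the 67.6% called in the data was not tested.

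The members and lists were chosen with earlier results of these data known. Of the apoptosis list, 2 genes are not reported here and enter none of its counts. Named genes are the members, NUF2, and in each list the 3 most abundant by average CPM, those past the study's threshold (its fold change of 1 read as log2), and the largest increase and decrease among genes called. TFDP1, TFDP2, MYBL1, CDKN1B, CDKN1C, CDKN2A, CDKN2B, CDKN2C and the markers named singly were added after their values were seen. Figures and motif searches used Python 3.11.15 with pandas 2.3.3 and matplotlib 3.10.9.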

Additional observations from a re-analysis of the deposited data

How the results depend on the processing

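The counts of 1 member higher and 6 lower held in every alternative on counts or FPKM except those named here. With at least 1 CPM in every library, 2 members were higher, since E2F4 was then called. With TREAT at 1.5-fold, 0 members were higher and 0 lower, and this test left 0 higher and 0 lower for the partners and MuvB complex, for PRC1.6 and for the G1/S genes, 2 higher and 3 lower for the genes upstream of RB1, 1 and 1 for the corepressors, 0 and 1 for the G2/M genes and 2 higher for the apoptosis genes, because it asks for a larger change. By limma with either pseudocount, 3 G1/S genes were higher. When libraries were left out singly, the log2 fold change of E2F3 ranged from -0.12 to 0.0070, the only reversal among the members, and that of NUF2 from -1.60 to -1.44. Of 448 comparisons with an alternative, 421 kept direction and call or, for a count of genes, stayed within 1.5 times the reported count. With the replicate number as a block, 1 member was higher (E2F7, 0.31) and 6 lower, and no call of a member changed. Same-numbered libraries did not deviate together (correlations 0.02, 0.00 and -0.03), so the numbers were not taken as pairs. Scalings moved the median of all genes by less than 0.1 on the log2 scale. E2F5 and E2F8 had the fewest reads of the members, at most 143 in any library, and the largest standard errors, 0.20 and 0.17.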
